A study of Homo sapiens with 8 samples.

Results

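The genes described here are the protein-coding genes of human chromosome 13 that were expressed in Alexander1 cells, an established human liver cancer line. A gene was included when its mean over the 8 libraries was at least 4 CPM, with CPM being the count scaled to a common library total. Of 319 protein-coding genes of chromosome 13 in the count table, 177 met this limit, out of 10571 protein-coding genes that met it on all chromosomes and 58206 rows in the table. The chromosome was chosen by the measured difference between the groups, since many of its genes lay lower in one group of these same libraries, so the differences between the groups given below are a description and carry no test. Positions are those of GENCODE release 29 on GRCh38, and genes were placed in 10 Mb bins by their lowest coordinate.

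RNA sequencing compared 4 libraries of the line as obtained, labelled wt, with 4 libraries of a derivative labelled Axin1+. Per the labels, the line carries an Axin1 that lacks the region that GSK3, a kinase, binds, which leaves Wnt signalling always active. The derivative was made by retroviral transfer of a plasmid and selection of clones with hygromycin B, and is described as carrying full-length Axin1 again. The labels list that treatment for every library, do not state how many clones were used, and do not say whether replicates came from separate cultures, so the spread between libraries may be technical.

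Chromosome 13 is an acrocentric chromosome whose expressed protein-coding genes lie on the long arm, with gene-rich stretches near both ends and a wide gene-poor stretch between them. It carries RB1, which encodes the retinoblastoma protein that restrains entry into S phase, BRCA2, which acts in homologous recombination, and liver genes such as ATP7B, the copper transporter mutated in Wilson disease, and the coagulation factor genes F7 and F10. DNA was not measured in the data used here.

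The wt libraries held 11232951 to 15263761 counts and the libraries labelled Axin1+ 12372436 to 26400782. AXIN1 RNA was between 47.4 and 55.3 CPM in wt and between 37.7 and 48.2 CPM in the libraries labelled Axin1+, a log2 difference of -0.21 (SE 0.12, edgeR adjusted p = 0.267). It was thus not higher where the label says it was added, gene counts do not separate the resident from the added form, and every direction below rests on the labels. All 10 hepatocyte and hepatoma markers had a mean of at least 1 CPM, and their summed level was 24038 to 28136 CPM in wt and 17177 to 20756 CPM in the libraries labelled Axin1+. SERPINA1, which encodes alpha-1 antitrypsin, made up most of that sum, at 14811 to 17644 CPM in wt and 8943 to 11616 CPM in the libraries labelled Axin1+, and was called lower (-0.64, SE 0.15, edgeR adjusted p = 0.0164). TTR, which encodes transthyretin, was called higher from a low level, at 1.42 to 5.35 CPM in wt and 4.81 to 21.2 CPM in the libraries labelled Axin1+ (1.76, SE 0.47, edgeR adjusted p = 0.0259). ALB, the albumin gene, was at 1.51 (SE 0.80), and the other 7 markers lay between -1.14 (AFP) and 0.09 (HNF4A), and none of these 8 was called. Of 5 fibroblast markers 1 reached a mean of 1 CPM (COL1A1), and of 3 leukocyte markers 0 did. Of 3 endothelial markers only PECAM1 did, at 4.47 to 6.50 CPM in wt and 33.8 to 58.3 CPM in the libraries labelled Axin1+, while CDH5 and KDR stayed at or below 0.248 CPM in every library. The part of the marker differences in the results below was not tested.

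Expressed chromosome 13 genes were on the whole lower in the libraries labelled Axin1+, with a median log2 fold change of -0.18, which is a level of 0.882 of wt. Fewer cells expressing a gene and less RNA of it per cell cannot be told apart in such bulk libraries. Of the 177 genes, 123 had a negative and 54 a positive log2 fold change. All 177 passed the filter on low counts. By edgeR's quasi-likelihood test over all 14289 genes, 31 were called lower and 5 higher (adjusted p under 0.05), and 66 had an unadjusted p under that value. The share called lower was 17.5% of these genes, beside 8.77% of all genes tested and 8.95% of protein-coding genes on other chromosomes. The share called higher was 2.82%, beside 10.4% and 10.9%. In 33 genes every library labelled Axin1+ lay below every wt library, and in 5 every one lay above, beside 11.2% and 12.7% of all genes tested. The median over all genes tested was 0.00. With total counts as the only scaling, which moves that median to 0.09, 20 chromosome 13 genes were called lower and 7 higher, beside 6.07% and 12.1% of all genes tested.

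These counts and the calls of single genes depended on single libraries. Without Axin1+ replicate 2, 21 genes were called lower and 6 higher, beside 6.48% and 8.11% of all genes tested. Without Axin1+ replicate 3 the numbers were 13 and 4, beside 4.60% and 6.07%, and without Axin1+ replicate 4 they were 13 and 2, beside 4.16% and 5.55%. Without wt replicate 1 they were 39 and 6, beside 11.0% and 13.1%. Without wt replicate 2 they were 13 and 2, beside 4.63% and 5.83%, without wt replicate 3 they were 18 and 6, beside 6.34% and 7.69%, and without wt replicate 4 they were 25 and 3, beside 6.73% and 8.01%.

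Of the 31 genes called lower with all libraries, 12 were called lower in each of the 8 fits that left out 1 library. They were CPB2, MRPS31, FOXO1, DNAJC15, EBPL, ESD and PHF11 at 40 to 50 Mb, EXOSC8 and FRY at 30 to 40 Mb, SPATA13 at 20 to 30 Mb, NEK3 at 50 to 60 Mb and MYCBP2 at 70 to 80 Mb. VWA8 was called in 7 of the 8 fits (not without Axin1+ replicate 3), RNASEH2B in 5, and RPL21, SOHLH2 and TPT1 in 4. The other 14 were called in at most 3 of the 8. PSPC1, PDS5B, NUFIP1, WBP4 and DHRS12 were called in 3, GTF3A, HMGB1, PROSER1, STARD13, SUPT20H, COG3, TBC1D4 and SPRY2 in 2, and ALG5 in 1. Of the 5 genes called higher, B3GLCT was called in all 8 fits, RNF17 and MCF2L in 7 (not without Axin1+ replicate 4 and wt replicate 2, respectively), TM9SF2 in 4 and GPC6 in 2. Where a gene is called lower or higher below, the call is that of the fit with all libraries.

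The lower levels were not spread evenly along the chromosome. In the bin at 40 to 50 Mb, 38 of 39 genes had a negative log2 fold change, and the median was -0.52, a level of 0.695 of wt. The bin at 30 to 40 Mb had a median of -0.43, with 16 of 20 genes below zero. These 2 adjoining bins held 21 of the 31 genes called lower, 9 at 30 to 40 Mb and 12 at 40 to 50 Mb. These are 45% and 30.8% of the genes of each bin, beside 8.77% of all genes tested. The bin nearest the centromere, at 10 to 20 Mb, had a median of -0.40 from only 4 genes, and the bin at 20 to 30 Mb a median of -0.17 from 31. From 50 Mb on the medians were -0.01 at 50 to 60 Mb (13 genes), -0.15 at 70 to 80 Mb (17 genes), 0.02 at 90 to 100 Mb (20 genes), 0.07 at 100 to 110 Mb (10 genes) and 0.03 at 110 to 120 Mb (21 genes). The bins at 60 to 70 Mb and 80 to 90 Mb held 1 expressed gene each, TDRD3 at 0.27 and SPRY2 at -0.70. Single libraries moved several of these medians. Without wt replicate 1 the median at 50 to 60 Mb was -0.19. At 70 to 80 Mb it was -0.31 without Axin1+ replicate 1 and -0.30 without wt replicate 1, lower than at 20 to 30 Mb in the same fits (-0.14 and -0.17), and -0.088 without Axin1+ replicate 3. At 20 to 30 Mb it was -0.10 without Axin1+ replicate 2. Without Axin1+ replicate 1 the medians at 90 to 100 Mb and 110 to 120 Mb were both below zero, at -0.048 and -0.047.

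**Figure D1:**
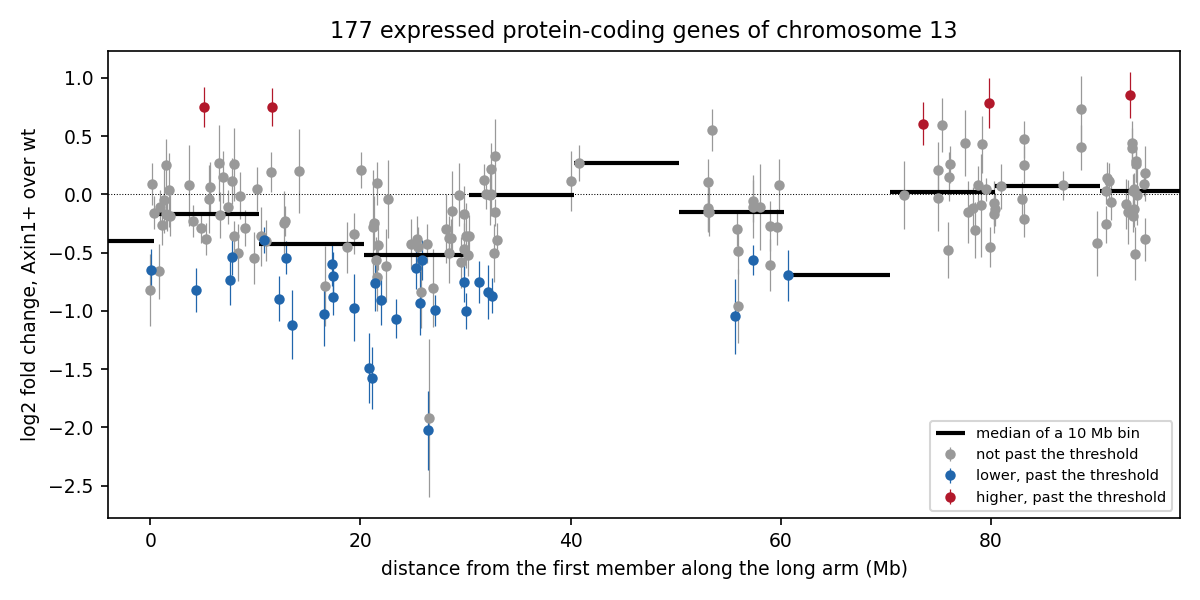
Log2 fold change (libraries labelled Axin1+ over wt, point and bar for the estimate and its standard error) of each of the 177 genes against its distance in Mb from the first of them, with black lines for the bin medians. The lowest points and the lowest medians of bins with over 4 genes lie in the adjoining bins at 30 to 50 Mb, and the points of the last 3 bins lie on both sides of zero.

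The 4 libraries labelled Axin1+ did not share the lower level equally. Against the mean of the wt libraries on the log2 CPM scale, the median over the 177 genes was 0.03 in Axin1+ replicate 1, -0.35 in replicate 2, -0.33 in replicate 3 and -0.16 in replicate 4. In the same libraries the median over 10394 protein-coding genes of other chromosomes was between 0.01 and 0.03. The wt libraries, each against the mean of the other 3, had medians of -0.22, 0.09, 0.14 and 0.00 for replicates 1 to 4. Replicate 1 of wt was lowest at 70 to 80 Mb, at -0.51, and at 90 to 100 Mb, at -0.47. The chromosome-wide median of replicates 1 and 4 labelled Axin1+ was therefore no farther from zero than that of wt replicate 1 within its own group, while that of replicates 2 and 3 was farther from zero than any within wt.

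At 40 to 50 Mb the difference was larger and the 4 libraries labelled Axin1+ were farther apart. The SD of their medians was 0.335 there and 0.177 over all 177 genes. The median over its 39 genes was -0.10 in Axin1+ replicate 1, -0.81 in replicate 2, -0.80 in replicate 3 and -0.63 in replicate 4. Genes below the wt mean numbered 25, 39, 39 and 35 of 39 in these replicates, and genes below every wt library 15, 34, 33 and 30. At 30 to 40 Mb the medians were -0.12, -0.67, -0.52 and -0.45. Replicate 1 labelled Axin1+ thus lay nearer zero than the other 3 in both bins. It lay above the mean of replicates 2 to 4 in 39 of 39 genes at 40 to 50 Mb, by a median of 0.61, and in 149 of all 177 genes, by a median of 0.33. On the other chromosomes the same difference had a median of 0.00.

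**Figure D2:**
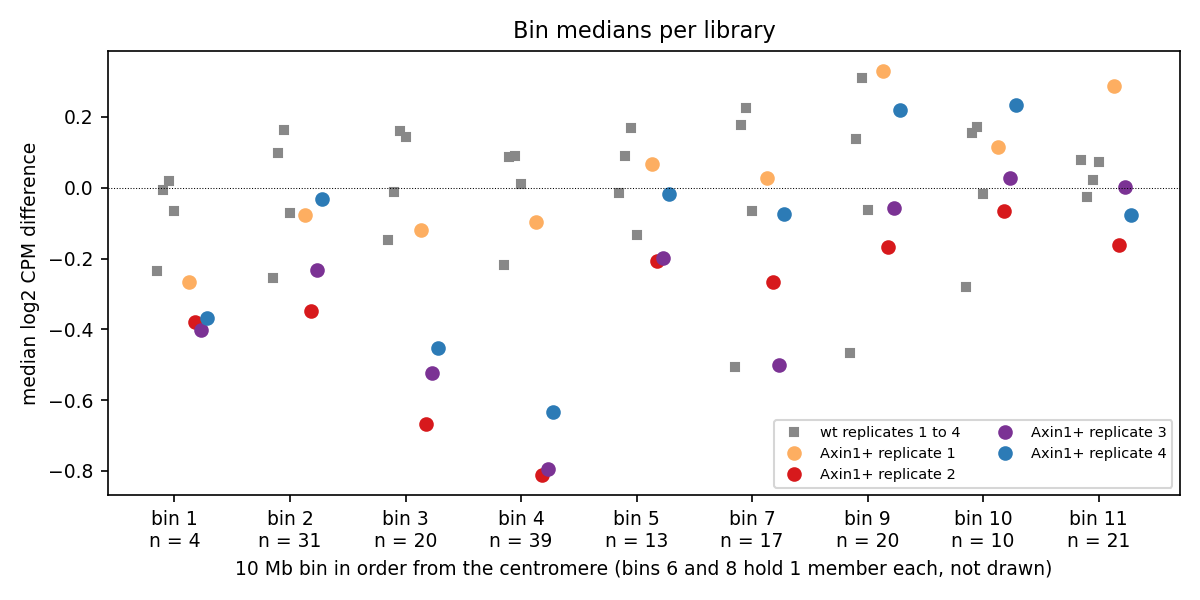
Median log2 CPM difference of each library in each bin of chromosome 13 (bin 1 is 10 to 20 Mb and bin 11 is 110 to 120 Mb), with libraries labelled Axin1+ set against the mean of the 4 wt libraries and each wt library against the mean of the other 3. In bin 4 (40 to 50 Mb) replicates 2 to 4 labelled Axin1+ lie between -0.81 and -0.63 and replicate 1 lies at -0.10.

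Results that rest on Axin1+ replicate 1 were therefore also computed without it. Then 43 chromosome 13 genes were called lower, 27 of them shared with the 31 found with all libraries, and 6 higher, beside 11.0% and 11.0% of the 14380 genes tested. The median over the 177 genes was -0.29. At 40 to 50 Mb, 23 of 39 genes were called lower in place of 12, and the median was -0.71. In 27 of these 39 genes replicates 2 to 4 all lay below every wt library, beside 16.5% of all genes tested. At 30 to 40 Mb the number called lower was 9 with and without this library, and the median without it was -0.54. Leaving out another library lowered both counts in several cases. At 40 to 50 Mb the count was 7 without Axin1+ replicate 3 and 8 without Axin1+ replicate 4 or wt replicate 2. At 30 to 40 Mb it was 2 without any 1 of those 3 libraries, 3 without Axin1+ replicate 2 or wt replicate 3, and 5 without wt replicate 4. In these fits from 4.16% to 6.73% of all genes tested were called lower.

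**Figure D3:**
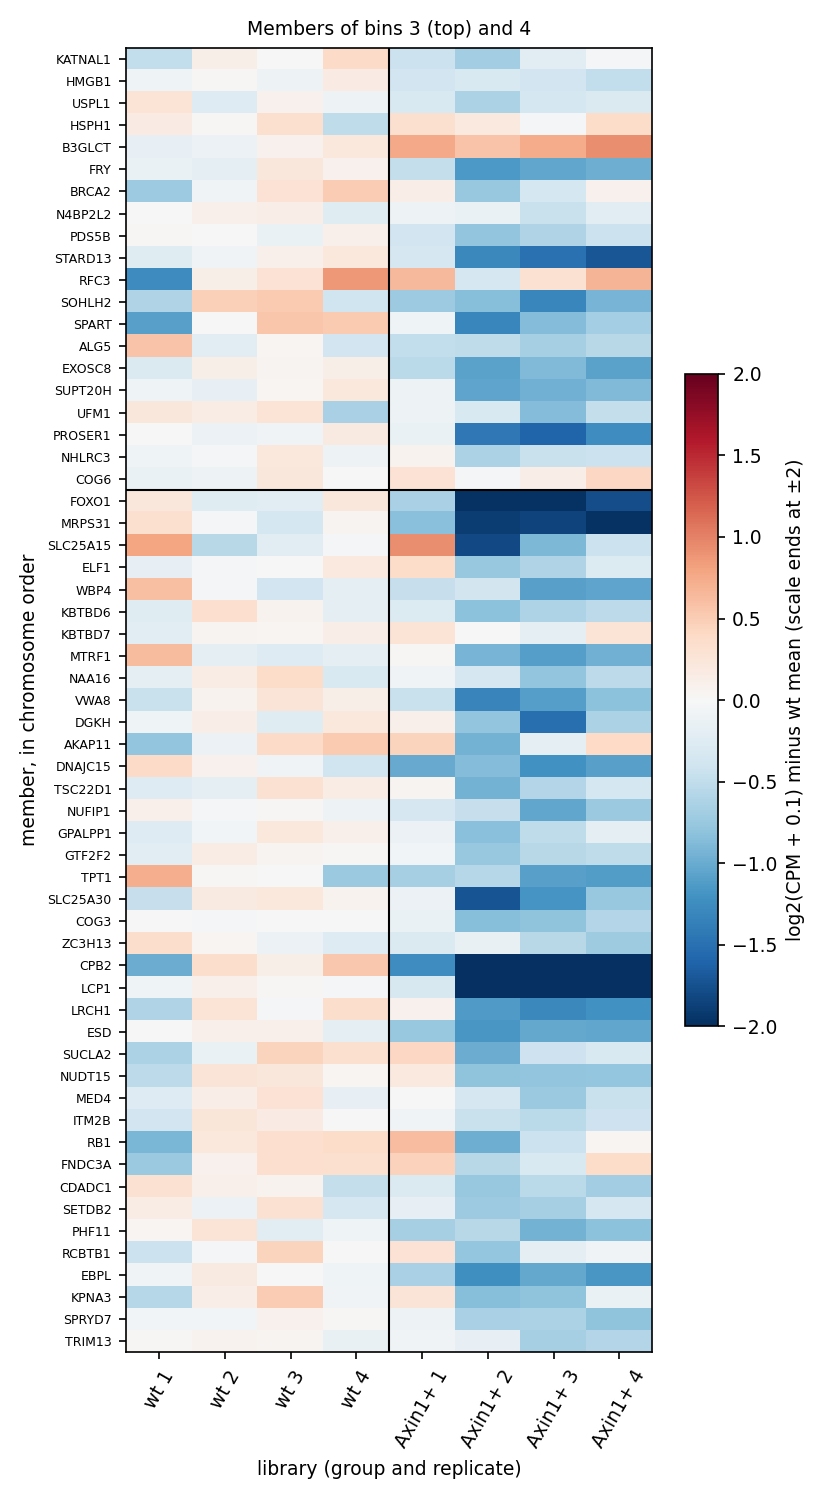
Difference of log2(CPM + 0.1) from the wt mean, blue for lower and red for higher, for each of the 59 genes at 30 to 50 Mb in chromosome order (rows) and each library (columns). Replicates 2 to 4 labelled Axin1+ are below the wt mean in most rows, and replicate 1 is nearer to it.

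The largest differences of the whole set lay in 4 genes at 40 to 50 Mb, CPB2, LCP1, MRPS31 and FOXO1, which are spread over several megabases. CPB2 (ENSG00000080618, minus strand, chr13:46053195-46105033) encodes a carboxypeptidase that the liver releases into plasma, where it slows the breakdown of fibrin clots. Its level was 24.0, 61.3, 52.0 and 69.7 CPM in wt replicates 1 to 4 and 20.4, 10.6, 10.6 and 8.94 CPM in the replicates 1 to 4 labelled Axin1+. All 4 libraries labelled Axin1+ were below the lowest wt library, wt replicate 1, although Axin1+ replicate 1 came close to it. The log2 fold change was -2.03 (SE 0.34), the lowest of the 177 genes, with means of 51.8 CPM ± 19.9 against 12.7 CPM ± 5.21 (SD, n = 4 per group).

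LCP1 (ENSG00000136167, minus strand, chr13:46125920-46211871) encodes L-plastin, an actin-bundling protein best known from blood cells and also made by many carcinoma lines. It stood at 279.8, 318, 301 and 292 CPM in wt replicates 1 to 4 and 237, 25.4, 26.8 and 24.6 CPM in the replicates 1 to 4 labelled Axin1+. Replicate 1 labelled Axin1+ was thus near the wt libraries, and the other 3 were far below them. With all libraries the log2 fold change was -1.92 (SE 0.68) and the gene was not called. Without Axin1+ replicate 1 it was -3.54 (SE 0.13), a level of 0.0860 of wt, and it was called lower.

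MRPS31 (ENSG00000102738, minus strand, chr13:40729135-40771173) encodes a protein of the small subunit of the mitochondrial ribosome. Its level was 37.1, 29.3, 23.3 and 30.7 CPM in wt replicates 1 to 4 and 16.5, 7.93, 8.18 and 7.49 CPM in the replicates 1 to 4 labelled Axin1+, so that the groups did not overlap and Axin1+ replicate 1 was the highest of its group. The log2 fold change was -1.57 (SE 0.27). FOXO1 (ENSG00000150907, minus strand, chr13:40469953-40666597), a forkhead transcription factor that insulin signalling keeps out of the nucleus and that drives genes of glucose production in liver, was at 41.5, 29.8, 30.6 and 41.4 CPM in wt replicates 1 to 4 and 22.5, 8.92, 8.87 and 10.2 CPM in the replicates 1 to 4 labelled Axin1+. Here too the groups were separate, with the same order inside the group labelled Axin1+, and the log2 fold change was -1.49 (SE 0.30). Without Axin1+ replicate 1 the values were -1.94 (SE 0.19) for MRPS31 and -1.94 (SE 0.18) for FOXO1.

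The DNA just before the starts of these 4 genes is shown because they had the largest differences, and that of GTF2F2, a subunit of the general factor TFIIF at -0.45 (SE 0.17), because it holds a match to a TCF/LEF motif. TCF/LEF factors are the DNA-binding partners of beta-catenin in Wnt signalling. Each line gives the 250 bases before the start in RefSeq on GRCh38.p14, 5′ to 3′ on the gene's strand, at chr13:46105034-46105283 for CPB2, chr13:46182178-46182427 for LCP1, chr13:40771191-40771440 for MRPS31 and chr13:40666642-40666891 for FOXO1, all on the minus strand, and at chr13:45120260-45120509 on the plus strand for GTF2F2. Capitals mark matches, on either strand, to the 5 motifs searched. These were the TCF/LEF motif in any of 4 forms (the letters CTTTGAA as one form, with CTTTGAT as another, then also CTTTGTA and finally the form CTTTGTT), the GC box spelled GGGCGG, the CCAAT box by its own letters, the ETS core spelled CCGGAAG and the TATA box spelled TATAAA. The RefSeq start used for LCP1 lies 29694 bases from the outer start of the gene in GENCODE.
CPB2: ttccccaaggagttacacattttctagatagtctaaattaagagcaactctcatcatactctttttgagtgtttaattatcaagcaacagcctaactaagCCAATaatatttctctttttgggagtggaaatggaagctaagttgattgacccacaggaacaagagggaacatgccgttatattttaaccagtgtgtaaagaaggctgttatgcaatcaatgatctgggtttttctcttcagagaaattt
LCP1: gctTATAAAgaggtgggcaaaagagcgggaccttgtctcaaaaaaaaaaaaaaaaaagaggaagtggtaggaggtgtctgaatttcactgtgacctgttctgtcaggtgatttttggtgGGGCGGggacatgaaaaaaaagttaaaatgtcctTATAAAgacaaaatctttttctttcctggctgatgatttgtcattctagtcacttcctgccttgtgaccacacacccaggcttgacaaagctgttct
MRPS31: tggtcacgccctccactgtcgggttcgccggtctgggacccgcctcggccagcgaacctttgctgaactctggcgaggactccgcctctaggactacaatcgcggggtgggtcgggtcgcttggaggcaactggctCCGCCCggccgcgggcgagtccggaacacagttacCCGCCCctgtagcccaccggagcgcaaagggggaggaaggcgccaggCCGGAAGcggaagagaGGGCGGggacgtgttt
FOXO1: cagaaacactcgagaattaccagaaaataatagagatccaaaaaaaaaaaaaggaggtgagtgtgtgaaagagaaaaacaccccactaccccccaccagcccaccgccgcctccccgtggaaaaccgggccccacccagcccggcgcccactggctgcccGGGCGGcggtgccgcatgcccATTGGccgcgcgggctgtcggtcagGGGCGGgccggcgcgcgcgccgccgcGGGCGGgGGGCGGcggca
GTF2F2: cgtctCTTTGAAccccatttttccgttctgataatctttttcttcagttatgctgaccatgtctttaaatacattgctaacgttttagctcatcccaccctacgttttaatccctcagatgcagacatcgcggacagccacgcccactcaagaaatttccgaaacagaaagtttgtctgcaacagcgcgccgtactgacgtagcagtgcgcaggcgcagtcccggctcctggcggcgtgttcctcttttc

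The 4 upstream sequences of the genes with the largest differences share no single motif of the 5. FOXO1, MRPS31 and LCP1 have GC boxes, LCP1 also has TATA letters at a distance from the start, and CPB2 has a CCAAT box and no GC box. Promoters of 300 bases, which add 50 bases after the start, were found for 157 of the 177 genes, 50 of them at 30 to 50 Mb. A TCF/LEF match was present in 5.10% of the 157, in 10.0% of the 50 at 30 to 50 Mb (5 promoters) and in 2.80% of the 107 elsewhere, beside 8.10% of 8581 promoters of expressed genes on other chromosomes and 13.8% of all 35116 promoters. A GC box was present in 63.1% of the 157, a CCAAT box in 35.7%, an ETS core in 18.5% and a TATA box in 7.64%, beside 72.2%, 37.3%, 21.1% and 5.12% on other chromosomes. The motifs were counted independently and a match to one may overlap a match to another. A match is a string of letters and not evidence of binding.

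A further group at 40 to 50 Mb had log2 fold changes near -1. ESD, which encodes S-formylglutathione hydrolase of formaldehyde detoxification, was at 62.6, 67.6, 67.9 and 55.2 CPM in wt replicates 1 to 4 and 37.2, 27.99, 31.0 and 30.6 CPM in the replicates 1 to 4 labelled Axin1+. Its groups were clearly separate, and its log2 fold change was -0.996 (SE 0.13). DNAJC15, a J-domain protein of the mitochondrial inner membrane, was at 59.8 CPM ± 13.6 against 28.5 CPM ± 2.87 (SD, n = 4 per group), and its log2 fold change was -1.07 (SE 0.17). EBPL, a relative of the sterol isomerase EBP, was at 39.3 CPM ± 3.38 against 19.6 CPM ± 3.70 (SD, n = 4 per group) and -1.002 (SE 0.15). In both genes every library labelled Axin1+ lay below every wt library. In DNAJC15, unlike the 4 genes with the largest differences, replicate 1 labelled Axin1+ lay among the other 3 of its group.

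TPT1, which encodes the translationally controlled tumour protein, was the most abundant of the 177 genes. Its level was 2808, 1725, 1674 and 1007 CPM in wt replicates 1 to 4 and 1066, 1138, 793 and 777 CPM in the replicates 1 to 4 labelled Axin1+. The groups overlapped, since wt replicate 4 lay among the libraries labelled Axin1+, and wt replicate 1 was the highest of all. The log2 fold change was -0.93 (SE 0.27) and the gene was called lower. TPT1 has many processed pseudogene copies, and the expressed genes TPT1-AS1 and ENSG00000273149 overlap its exons. With the counting method not known its value is uncertain.

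The remaining genes called lower at 40 to 50 Mb were VWA8, a mitochondrial ATPase-like protein (-0.91, SE 0.21), WBP4, a splicing factor (-0.76, SE 0.24), PHF11, a PHD-finger protein (-0.76, SE 0.17), NUFIP1, which acts in the assembly of small nucleolar ribonucleoproteins (-0.63, SE 0.18), and COG3, a subunit of a Golgi tethering complex (-0.56, SE 0.17). WBP4 shares exon sequence with ELF1 on the other strand. In COG3 the 4 wt libraries lay between 28.8 and 29.6 CPM, and the libraries labelled Axin1+ were at 26.7, 16.2, 16.8 and 19.6 CPM. The order is again that of a replicate 1 near wt and a lower remainder.

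Some genes in this stretch differed little between the group means, and ITM2B was lower without being called. RB1 was at 9.61, 21.1, 23.0 and 23.5 CPM in wt replicates 1 to 4 and 27.9, 9.25, 13.5 and 18.7 CPM in the replicates 1 to 4 labelled Axin1+. Its groups overlapped widely, wt replicate 1 was about as low as Axin1+ replicate 2, and the log2 fold change was -0.15 (SE 0.34). RB1 was at -0.48 (SE 0.32) without Axin1+ replicate 1 and at -0.37 (SE 0.29) without wt replicate 1, and was not called in either fit. Leaving out 1 library gave values of RB1 from -0.48 to 0.055. FNDC3A, a membrane protein with fibronectin type III repeats, was at 94.3 CPM ± 28.1 against 94.0 CPM ± 31.5 (SD, n = 4 per group), and its log2 fold change was 0.00 (SE 0.27). KBTBD7, an adaptor of a cullin ubiquitin ligase, had the highest value of the bin at 0.09 (SE 0.18). ITM2B, which encodes the membrane protein BRI2 and was among the 5 most abundant genes, was at 249, 386, 365 and 324 CPM in wt replicates 1 to 4 and 312, 239.7, 225 and 246 CPM in the replicates 1 to 4 labelled Axin1+. Its log2 fold change of -0.37 (SE 0.16) was not called, and wt replicate 1 overlapped the other group. Without wt replicate 1 it was called lower, at -0.49 (SE 0.14), and leaving out 1 library gave values from -0.49 to -0.29.

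**Figure D4:**
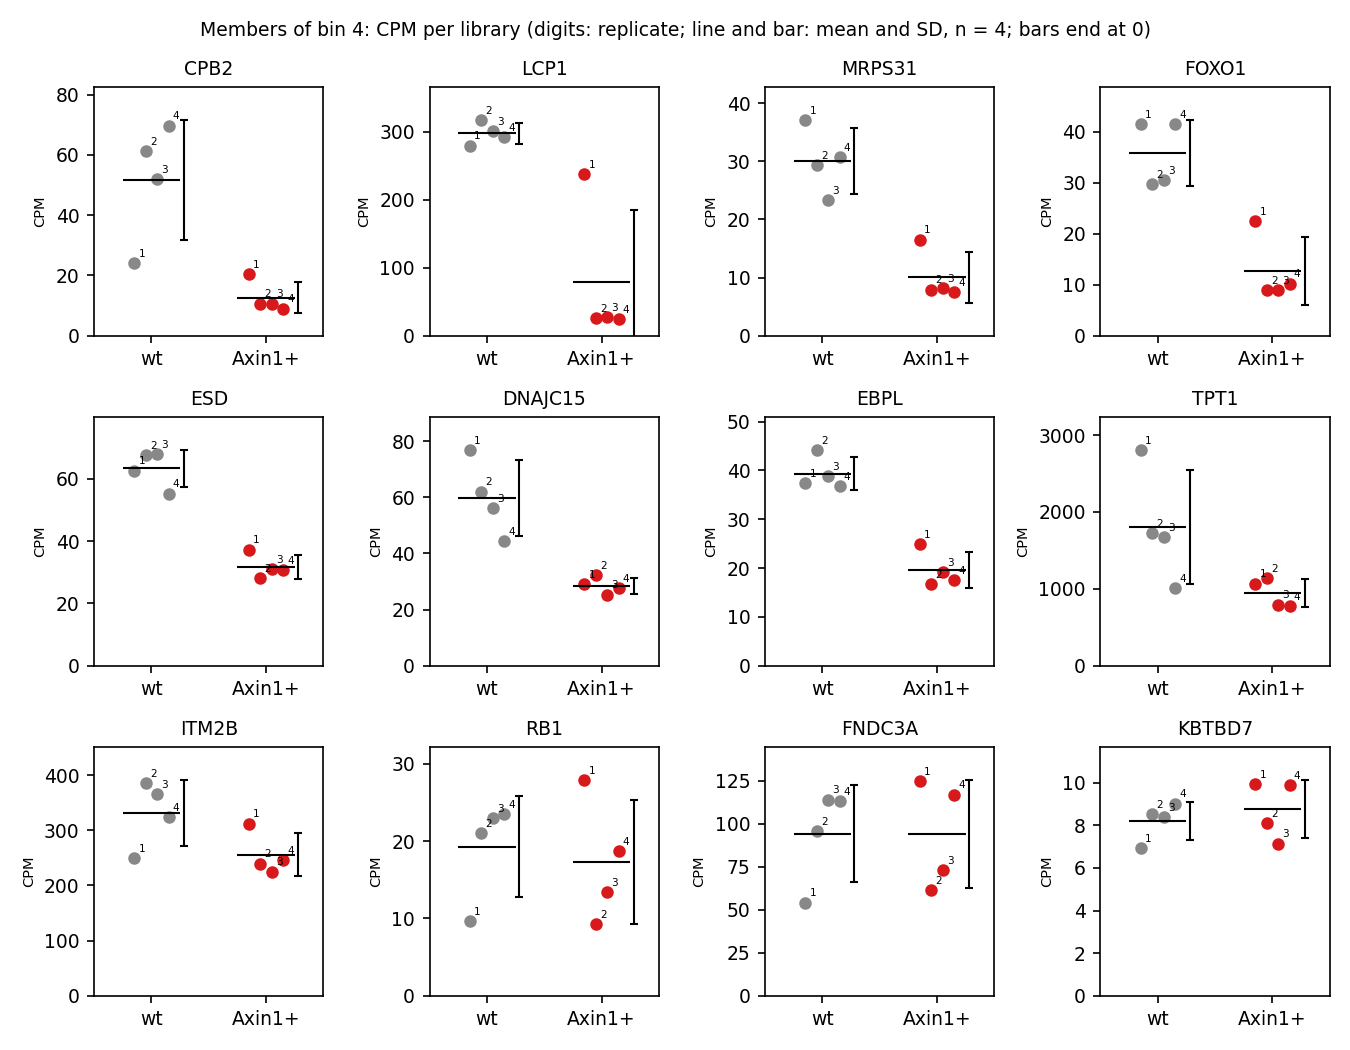
CPM in each library for 12 genes at 40 to 50 Mb (linear axes from 0, digits give the replicate, line and bar the mean and SD of 4 libraries, with bars ended at 0). In CPB2, LCP1, MRPS31 and FOXO1 replicate 1 labelled Axin1+ lies above the other 3 of its group, and in RB1, FNDC3A and KBTBD7 the groups overlap.

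At 30 to 40 Mb the lowest gene was STARD13. It was at 8.81, 9.95, 11.2 and 12.02 CPM in wt replicates 1 to 4 and 8.21, 4.21, 3.65 and 3.12 CPM in the replicates 1 to 4 labelled Axin1+. The groups did not overlap, although Axin1+ replicate 1 lay just below the lowest wt library, and the log2 fold change was -1.12 (SE 0.30). Without that library it was -1.53 (SE 0.21). EXOSC8, a subunit of the RNA exosome, was at 57.2, 75.8, 72.5 and 75.3 CPM in wt replicates 1 to 4 and 47.7, 33.1, 37.9 and 33.2 CPM in the replicates 1 to 4 labelled Axin1+, with separate groups and a log2 fold change of -0.88 (SE 0.15). SUPT20H, a subunit of the SAGA coactivator, partly shares exon sequence with EXOSC8 and was at -0.70 (SE 0.21).

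PROSER1 was at 52.5, 48.5, 50.1 and 59.3 CPM in wt replicates 1 to 4 and 47.9, 19.5, 17.3 and 22.1 CPM in the replicates 1 to 4 labelled Axin1+, which is the pattern of LCP1 in a milder form, and its log2 fold change was -0.97 (SE 0.28). The other genes called lower in this bin were SOHLH2, a germ-cell transcription factor (-1.03, SE 0.27), FRY, a spindle-associated protein (-0.90, SE 0.19), ALG5, an enzyme of protein glycosylation (-0.60, SE 0.19), PDS5B, a regulator of cohesin (-0.54, SE 0.14), and HMGB1, a chromatin protein (-0.39, SE 0.12). BRCA2 was at 13.3 CPM ± 4.55 against 11.1 CPM ± 3.04 (SD, n = 4 per group) and was not called, at -0.25 (SE 0.28) on the log2 scale. B3GLCT, a glucosyltransferase of thrombospondin repeats, went the other way. It was at 7.65, 7.92, 9.18 and 9.95 CPM in wt replicates 1 to 4 and 14.7, 12.8, 14.4 and 16.4 CPM in the replicates 1 to 4 labelled Axin1+, so every library labelled Axin1+ lay above every wt library, and it was called higher at 0.75 (SE 0.16).

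In the bins nearer the centromere, PSPC1, a paraspeckle protein, was called lower at -0.65 (SE 0.18), with separate groups at 29.6 CPM ± 7.40 against 18.8 CPM ± 1.77 (SD, n = 4 per group). It was not called without Axin1+ replicate 2, 3 or 4 or wt replicate 2 or 4. MPHOSPH8, a subunit of the HUSH silencing complex, had the lowest value of the bin at 10 to 20 Mb, -0.82 (SE 0.31). It was at 556, 261, 212 and 192 CPM in wt replicates 1 to 4 and 165, 223, 163 and 141 CPM in the replicates 1 to 4 labelled Axin1+, so that wt replicate 1 alone was far above the rest, and it was not called. Without wt replicate 1 it was at -0.36 (SE 0.17), above PSPC1 at -0.76 (SE 0.16) in the same fit, so that the lowest place in the bin rested on that library. ZMYM5, a zinc-finger gene, had the highest value of that bin, 0.09 (SE 0.18). At 20 to 30 Mb, SPATA13 was called lower at -0.82 (SE 0.19), and RNF17, a germ-cell tudor protein, was called higher at 0.75 (SE 0.17). RPL21 of the large ribosomal subunit was called lower at -0.74 (SE 0.21) and has many processed pseudogenes, so its value is uncertain. GTF3A, the factor TFIIIA of 5S RNA transcription, was called lower at -0.53 (SE 0.16) and shares exon sequence with MTIF3.

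At 50 to 60 Mb the genes called lower were RNASEH2B, a subunit of ribonuclease H2, NEK3, a kinase, and DHRS12, a dehydrogenase. RNASEH2B was at 37.2, 47.1, 49.8 and 36.5 CPM in wt replicates 1 to 4 and 33.9, 22.4, 22.8 and 21.8 CPM in the replicates 1 to 4 labelled Axin1+, with separate groups and a log2 fold change of -0.76 (SE 0.18). The number called lower in this bin was 1 without Axin1+ replicate 4 or wt replicate 2, beside 4.16% and 4.63% of all genes tested. NEK3 was at 21.3 CPM ± 2.27 against 11.6 CPM ± 1.28 (SD, n = 4 per group) and -0.87 (SE 0.15), and DHRS12 at 9.14 CPM ± 2.02 against 5.13 CPM ± 1.11 (SD, n = 4 per group) and -0.84 (SE 0.23). In the same bin ATP7B was at 27.1, 58.4, 55.8 and 77.3 CPM in wt replicates 1 to 4 and 60.9, 42.1, 54.6 and 59.5 CPM in the replicates 1 to 4 labelled Axin1+. Its groups overlapped and its log2 fold change was -0.01 (SE 0.26). CKAP2, a spindle protein, had the highest value of the bin at 0.33 (SE 0.32) and was not called. Without Axin1+ replicate 1 it was at 0.018 (SE 0.29) and without wt replicate 1 at 0.11 (SE 0.25).

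At 70 to 80 Mb, TBC1D4, which encodes a regulator of glucose transporter traffic under insulin, was at 50.02, 55.8, 60.1 and 43.9 CPM in wt replicates 1 to 4 and 47.8, 14.9, 17.9 and 20.3 CPM in the replicates 1 to 4 labelled Axin1+. Axin1+ replicate 1 lay within the wt range and the other 3 far below it. The log2 fold change was -1.05 (SE 0.32) with all libraries and -1.56 (SE 0.17) without Axin1+ replicate 1. MYCBP2, a very large ubiquitin ligase, was called lower at -0.56 (SE 0.13), and KLF5, a Krüppel-like transcription factor, had the highest value of the bin at 0.55 (SE 0.18) and was not called. SPRY2, an inhibitor of receptor tyrosine kinase signalling and the only expressed gene at 80 to 90 Mb, was called lower at -0.70 (SE 0.22). Its call held without Axin1+ replicate 1 or wt replicate 1 and was lost without any 1 of the other 6 libraries, with values from -0.80 to -0.58.

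From 90 Mb to the end of the chromosome, in bins of 20, 10 and 21 genes, 0 genes were called lower and 3 higher. Over all genes tested 8.77% were called lower and 10.4% higher. TM9SF2, a Golgi and endosome membrane protein, was at 112, 180.4, 230.0 and 178 CPM in wt replicates 1 to 4 and 327, 242, 272 and 365 CPM in the replicates 1 to 4 labelled Axin1+. Its groups were separate and its log2 fold change was 0.78 (SE 0.21). GPC6, a glypican of the cell surface, was called higher at 0.61 (SE 0.19), and MCF2L at 0.85 (SE 0.20), the highest value of all 177 genes. LIG4, the ligase of non-homologous end joining, was at 5.78, 9.41, 12.03 and 10.5 CPM in wt replicates 1 to 4 and 20.9, 9.41, 13.1 and 19.1 CPM in the replicates 1 to 4 labelled Axin1+. It overlapped between the groups, was not called, and had a log2 fold change of 0.73 (SE 0.28). F10, which encodes coagulation factor X, was at 0.40 (SE 0.17), and LAMP1, a lysosomal membrane protein among the 5 most abundant genes, at -0.13 (SE 0.15). Neither was called. The number called higher from 90 Mb on was 1 without Axin1+ replicate 3, Axin1+ replicate 4 or wt replicate 4, and 0 without wt replicate 2. Over all genes tested the shares called higher in these fits were 6.07%, 5.55%, 8.01% and 5.83%. Without Axin1+ replicate 1, 2 genes at 90 to 100 Mb and 1 at 110 to 120 Mb were called lower, and without wt replicate 1, 1 at 90 to 100 Mb was. In both of these fits 11.0% of all genes tested were called lower.

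By role, among 20 genes of RNA processing, nuclear transport and translation 7 were called lower and 0 higher, with 8.77% of all genes tested called lower and 10.4% higher, and the list had a median log2 fold change of -0.37. Those 7 were RPL21, GTF3A, HMGB1, EXOSC8, SUPT20H, NUFIP1 and TPT1. HMGB1, EXOSC8 and SUPT20H lie at 30 to 40 Mb and NUFIP1 and TPT1 at 40 to 50 Mb. The values of RPL21 and TPT1 are uncertain. The lists thus overlap with position, and the part of each was not tested. Without Axin1+ replicate 3, Axin1+ replicate 4 or wt replicate 2 the count was 1, and without wt replicate 3 it was 2, and without wt replicate 4 it was 4. Among 19 liver, plasma and metabolic genes, 4 were called lower (MRPS31, VWA8, CPB2 and ESD) and 0 higher, with a median of -0.26. All 4 lie at 40 to 50 Mb. IRS2, the insulin receptor substrate of liver, was at -0.42 (SE 0.28) and SLC7A1, a transporter of cationic amino acids, at -0.55 (SE 0.22), and neither was called. Without wt replicate 1 IRS2 was at -0.056 (SE 0.19). For the list, leaving out 1 library gave between 3 and 6 called lower.

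Among 16 genes of genome maintenance and tumour suppression, PDS5B, RNASEH2B and NEK3 were called lower and 0 higher, with a median of -0.13. The count was 1 without Axin1+ replicate 3, Axin1+ replicate 4 or wt replicate 2. Among 24 genes of ubiquitin, folding and trafficking, 4 were called lower (ALG5, DNAJC15, COG3 and MYCBP2) and 0 higher, with a median of -0.11. POMP, an assembly factor of the proteasome, was at -0.29 (SE 0.15), DNAJC3, a chaperone of the endoplasmic reticulum, at 0.15 (SE 0.21) and CUL4A, a ubiquitin ligase scaffold, at 0.03 (SE 0.15), and these 3 were not called. The count was 2 without Axin1+ replicate 3, Axin1+ replicate 4, wt replicate 2 or wt replicate 3, and 6 without wt replicate 4.

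Among 18 transcription factors, cofactors and signalling genes, FOXO1 and SPRY2 were called lower and 0 higher, with a median of -0.18. Here leaving out Axin1+ replicate 1 raised the count to 6 and leaving out wt replicate 1 to 4, and leaving out any other library gave 1. TFDP1, the partner of E2F factors, was at -0.01 (SE 0.25), STK24, a kinase, at 0.08 (SE 0.16) and LMO7, an adherens junction protein, at -0.49 (SE 0.19). These 3 were not called. Of 17 cell surface, matrix and lysosome genes only 6 were expressed at 4 CPM, of which 0 were called lower and GPC6 and TM9SF2 higher, with a median of -0.07. Without Axin1+ replicate 3, Axin1+ replicate 4, wt replicate 2 or wt replicate 4 neither was called. COL4A1 and COL4A2, a head-to-head pair encoding collagen IV chains, had means of 0.037 and 0.203 CPM over the 8 libraries. Beside the counts of the 6 lists with all libraries stand 8.77% called lower and 10.4% called higher over all genes tested, and beside those with 1 library left out the shares of the same fits, from 4.16% to 11.0% lower and from 5.55% to 13.1% higher. With all libraries, 2 of 18 transcription factors, cofactors and signalling genes is a share near the 8.77% of all genes tested. With 1 library left out, 1 called lower in the lists of 20, 16 and 18 genes is also near the share of all genes in those fits. Leaving out a library gave at most 2 called higher in any list that had 0.

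Neighbouring genes were compared because pairs that share a start region lie closest together. Of the 177 genes, 16 pairs are arranged head to head with starts within 1000 bases. The closest were DIS3 and PIBF1, both at -0.15, and HMGB1 and USPL1, at -0.39 and -0.40. The widest were COMMD6 and UCHL3, at -0.30 and -0.96, a difference of 0.66, and PROSER1 and NHLRC3, at -0.97 and -0.34. LNX2 and POLR1D had opposite signs, at 0.26 and -0.36. The median absolute difference within the 16 pairs was 0.24, against 0.35 over 176 pairs of adjacent genes. Both genes were below zero in 7 pairs and above zero in 3, and the signs were opposite in 6.

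Across the 177 genes the Spearman correlation of the log2 fold change was -0.07 with the GC content of the transcript, 0.04 with exon length and 0.06 with mean level. Over the 39 genes at 40 to 50 Mb it was -0.25 with GC content, 0.25 with exon length and -0.16 with mean level. These are correlations across genes of the same libraries, and genes are not independent replicates. At 30 to 50 Mb the median was -0.44 over 28 genes on the plus strand and -0.63 over 31 on the minus strand, and -0.47 over 29 genes under 20 CPM and -0.53 over 30 at or above it. The widest of these splits was by GC content, with -0.97 over the 9 genes of at least 45% GC and -0.45 over the 50 under it.

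Genes of the chromosome that the rule did not include were mostly below zero both in this stretch and elsewhere. The 4 genes of other types than protein-coding at 30 to 50 Mb with a mean of at least 4 CPM had a median of -0.72, all below zero. Their library medians were -0.07, -0.88, -0.89 and -0.75 for replicates 1 to 4 labelled Axin1+. TPT1-AS1 and ENSG00000273149 are among these 4, and both overlap exons of TPT1, whose own value is uncertain. Of 10 protein-coding genes there at 1 to 4 CPM, 9 were below zero, with a median of -0.43, and of 4 genes of other types there at 1 to 4 CPM 3 were, with a median of -0.28. Elsewhere on the chromosome 5 genes of other types at 4 CPM or more had a median of -0.30 (3 below zero), and 20 at 1 to 4 CPM a median of -0.20 (15 below zero). There 12 protein-coding genes at 1 to 4 CPM had a median of -0.27 (7 below zero), lower than the -0.07 of the 118 genes above the limit. The genes of other types at 1 to 4 CPM include pseudogenes, PSME2P2 at 30 to 50 Mb and PPP1R2P10 elsewhere.

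Set beside other chromosomes, chromosome 13 had the lowest median of 23, at -0.18, with chromosome 7 at -0.17, chromosome 2 at -0.16 and the highest, chromosome 5, at 0.43. Chromosome 13 therefore differs little in its overall median from the next lowest chromosomes. Among 274 bins of 10 Mb with at least 10 genes on other chromosomes, 2 had a median at or below that of 40 to 50 Mb on chromosome 13 and 4 at or below that of 30 to 40 Mb. The medians of these 274 bins ran from -0.61 to 0.75. The 2 lowest lie on chromosome 1, at 100 to 110 Mb with a median of -0.61 and at 110 to 120 Mb with -0.56. Their medians by library were -0.20, -0.85, -0.83 and -0.69, and -0.08, -0.76, -0.77 and -0.69, for replicates 1 to 4 labelled Axin1+, so that replicate 1 lay nearest zero and replicates 2 and 3 lowest, as at 40 to 50 Mb on chromosome 13.

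**Figure D5:**
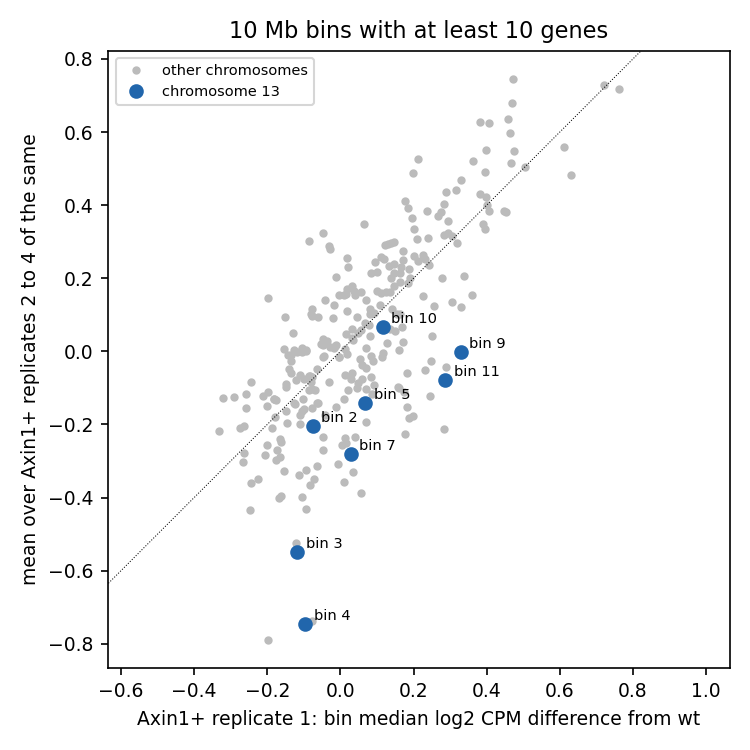
Median log2 CPM difference from wt of each 10 Mb bin with at least 10 genes, in Axin1+ replicate 1 (horizontal axis) and as the mean of the medians of replicates 2 to 4 (vertical axis), with a dotted line where both are equal. Bins 3 and 4 of chromosome 13 (30 to 50 Mb) lie far below the line, near 3 bins of other chromosomes.

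Of the 142 protein-coding genes of the chromosome below the limit, 120 had a mean under 1 CPM, 50 of them with no count in any library, 22 were at 1 to 4 CPM, and 24 of the 142 passed the filter and were tested. Just below the limit lay PCDH9 at a mean of 3.88 CPM and a log2 fold change of -2.16, RASL11A at 3.92 CPM and -0.56, and HNRNPA1L2 at 3.99 CPM and -0.27. Just above it lay KATNAL1 at 4.58 CPM and -0.36, DGKH at 5.29 CPM and -0.61, and SETDB2 at 5.51 CPM and -0.47.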

How the data were processed

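Total RNA of 8 samples was made into mRNA libraries, per the labels' protocols. Per the submitters' processing notes, bcl2fastq, fastp 0.23.1, STAR 2.7.4 and GRCh38 were used, and the program that counted reads, its annotation and its strand setting are not given in the sources used here. The authors deposited raw counts per gene without normalization, as the whole numbers and unequal totals of the table show.

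Of 58206 identifiers, 57943 were found in GENCODE release 29. In R 4.3.3, edgeR 4.0.16 (filterByExpr, minimum count 10 and minimum total 15, TMM factors, glmQLFit and glmQLFTest, no covariates) compared 4 libraries with 4, with Benjamini-Hochberg adjustment over 14289 genes and a threshold of 0.05. CPM use TMM-scaled totals, and log2 CPM a prior count of 2. Library totals set the precision of low values. Promoters came from RefSeq on GRCh38.p14. The test was checked on simulated counts with known changes.

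The genes, the role lists and the tests were chosen with earlier results of these data known. Named genes are the lowest and highest of each bin with at least 3 genes, the 5 most abundant, the 3 most abundant of each role list, and LIG4, RB1, ATP7B, COL4A1 and COL4A2. All other genes named were chosen after their values were seen, as was the joining of the bins at 30 to 50 Mb. Alternatives were DESeq2 1.42.0 size factors and Wald test, limma 3.58.1 voom, upper-quartile scaling, total counts only, no filter, a GC and length offset (splines with 5 degrees of freedom), a replicate block, an adjusted p under 0.01, other CPM limits (1 and 10), other gene types, bins of 5 and 20 Mb, and leaving out each library.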

Additional observations from a re-analysis of the deposited data

Results flagged for a closer look

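For each gene named by the rule, the 4 values of each group were searched for a highest or lowest library far from the other 3 (Dixon's ratio of the gap to the range). Of 82 groups of 4 values tested, 6 met this limit, and chance alone gives about 1 in 20 groups. In 4 of the 6 the library was Axin1+ replicate 1, and it was the highest. CPB2 was at 20.4 CPM there and at 8.94 to 10.6 CPM in the other 3 libraries labelled Axin1+. RNASEH2B was at 33.9 CPM against 21.8 to 22.8, TBC1D4 at 47.8 CPM against 14.9 to 20.3, and ADPRHL1, an ADP-ribosylhydrolase relative in the last bin of the chromosome, at 17.1 CPM against 8.50 to 9.37. In the other 2 the library was wt replicate 1. IRS2 was at 69.9 CPM there and at 30.3 to 35.8 CPM in the other wt libraries, and CUL4A at 127 CPM against 149 to 152.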

How the results depend on the processing

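The median over the 177 genes stayed below zero under every alternative run, from -0.29 to -0.11 when 1 library was left out. The number called lower was 31 with all libraries and 13 to 43 when 1 was left out, 20 with total counts only and 8 at an adjusted p under 0.01. The number called higher was 5, and 2 to 6 when 1 library was left out, 8 with no filter on low counts and 0 at the threshold of 0.01. With no filter, 1846 of all 30224 genes tested were called higher. Over all genes tested, 2738 were called, 1394 to 3523 when 1 library was left out and 964 at an adjusted p under 0.01. The 964 were not divided by direction. The bin at 10 to 20 Mb, with 4 genes, had a median of -0.48 with the GC and length offset, -0.65 at a limit of 10 CPM, -0.33 with total counts only, and -0.45 to -0.29 when 1 library was left out. At 35 to 40 Mb the median was -0.70, at 105 to 110 Mb 0.24 and at 40 to 60 Mb -0.46. At 50 to 60 Mb it was -0.16 at a limit of 1 CPM, and -0.19 to 0.010 when 1 library was left out. The medians at 30 to 40 Mb and 40 to 50 Mb ran from -0.54 to -0.40 and from -0.71 to -0.41 when 1 library was left out. The cause of these shifts was not tested.

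Of the 36 genes named by the rule, 7 changed sign under some alternatives, none of them called with all libraries. The other genes were not followed through every alternative, and some of them changed sign too. SLC25A15 was at -0.28 with all libraries and at 0.058 without wt replicate 1. ATP7B was at 0.072 with limma-voom, 0.013 with no filter, 0.058 with total counts only and -0.23 to 0.21 when 1 library was left out (0.095 without Axin1+ replicate 2, 0.021 without wt replicate 2). TFDP1 was at 0.014 with no filter, 0.063 with total counts only and -0.25 to 0.19 when 1 library was left out (0.12, 0.042 and 0.031 without Axin1+ replicates 2, 3 and 4). CUL4A was at -0.049 with the GC and length offset and at -0.11 to 0.12 when 1 library was left out (-0.032 without wt replicate 1), and ZMYM5 was at -0.018 with that offset. When 1 library was left out, DNAJC3 ran from -0.017 to 0.35, RB1 from -0.48 to 0.055 and STK24 from -0.035 to 0.15 (also -0.035 without Axin1+ replicate 1). IRS2 ran from -0.60 to -0.056, CKAP2 from 0.018 to 0.51, MPHOSPH8 from -0.99 to -0.36 and KBTBD7 from 0.023 to 0.18. The cause was not tested.

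With the replicate number as a block, 23 genes of chromosome 13 were called lower and 3 higher, and ATP7B was at 0.059. Of all 14289 genes tested in that fit 2033 were called, 932 of them lower and 1101 higher. Deviations from the group means of same-numbered libraries correlated at -0.06, 0.01, -0.03 and 0.23 across genes. Such deviations sum to zero within each group, so these values cannot settle whether the numbers pair the libraries. Some differently numbered libraries correlated more strongly. The values were 0.45 for wt replicate 1 with Axin1+ replicate 2 and 0.44 for wt replicate 3 with Axin1+ replicate 4. They were -0.43 for wt replicate 4 with Axin1+ replicate 2 and -0.42 for wt replicate 1 with Axin1+ replicate 4. What these libraries share was not tested.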
